A study of Mus musculus with 12 samples.

Results

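The comparison concerns 3 transfected RNA-seq libraries of L929 cells in which Ifit1 and other strongly induced interferon-stimulated genes were low, set against 3 libraries of cells that received the inhibitor BX795 and no plasmid. The 3 libraries were chosen by a measured value. Of the 6 libraries labelled as transfected with pEGFP-N1, those with an Ifit1 expression below 10 FPKM were taken, and they were compared with all 3 BX795 libraries, so the comparison used 6 of the 12 libraries in the series. Ifit1 encodes an interferon-induced protein that binds foreign RNA. It was at 0 FPKM in the library labelled pEGFP-N1 replicate 2, at 0.17 FPKM in BX795 plus pEGFP-N1 replicate 2 and at 0.57 FPKM in BX795 plus pEGFP-N1 replicate 3. In the 3 transfected libraries that were left out, it stood at 92.6 FPKM (BX795 plus pEGFP-N1 replicate 1), 95.2 FPKM (pEGFP-N1 replicate 3) and 96.7 FPKM (pEGFP-N1 replicate 1), so no library lay near the limit. These values made the grouping and are a description only.

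L929 is a mouse fibroblast line from connective tissue of the C3H/An strain. The series has 4 groups of 3 libraries each: mock (vehicle, DMSO), pEGFP-N1, BX795 (0.5 μM), and BX795 plus pEGFP-N1. Inhibitor or vehicle was given 1 h before lipid complexes of the plasmid, which expresses EGFP from the CMV promoter, and cells were collected 6 h after transfection. Nothing in the labels tells whether the 3 replicates of a group were separate cultures, so p-values measure only the spread between these samples, which may be technical. Values are FPKM, fragments per kilobase of exon model scaled to the library's mapped reads. Since they keep no read totals, sequencing depth is unknown here.

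Cytosolic plasmid DNA is detected by cGAS, which makes a cyclic dinucleotide that activates STING. STING recruits the kinase TBK1, and the resulting type I interferon induces the interferon-stimulated genes. BX795 inhibits TBK1 and the related kinase IKKε, and it was also described as an inhibitor of PDK1. STING can also feed into NF-κB, which drives chemokine genes such as Cxcl1, Cxcl2 and Ccl2. The comparison therefore asks what else the plasmid changes in libraries where Ifit1 and other strongly induced interferon-stimulated genes are low.

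Several libraries resembled libraries of another label. Over the genes compared, the library labelled pEGFP-N1 replicate 2 differed by at least 1.5-fold from BX795 replicates 2 and 3 in 32 genes each. It differed in 115 genes from BX795 plus pEGFP-N1 replicate 2, in 891 from pEGFP-N1 replicate 1 and in 951 from pEGFP-N1 replicate 3. BX795 replicate 1 was closest to BX795 plus pEGFP-N1 replicate 2, with 43 such genes, against 85 and 99 to BX795 replicates 2 and 3. The library labelled BX795 plus pEGFP-N1 replicate 1 differed in only 23 and 30 genes from pEGFP-N1 replicates 3 and 1. BX795 plus pEGFP-N1 replicate 3 stood apart from every library, by 218 to 915 genes, and its nearest was BX795 replicate 1. Its FPKM summed to 467348, against 495030 to 513761 in the other libraries, and 16 genes were at least 2-fold above and 19 at least 2-fold below all the other libraries. In the other libraries these counts were 0 or 1. The grouping above thus placed one library against its label, since pEGFP-N1 replicate 2 was labelled as having had no inhibitor. Whether labels were exchanged between libraries was not tested, and the words transfected and BX795 below follow the labels. Where a gene's values are set against BX795, the transfected libraries, or transfected set, are the 3 interferon-low ones. No 2 libraries held identical values.

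**Figure D1:**
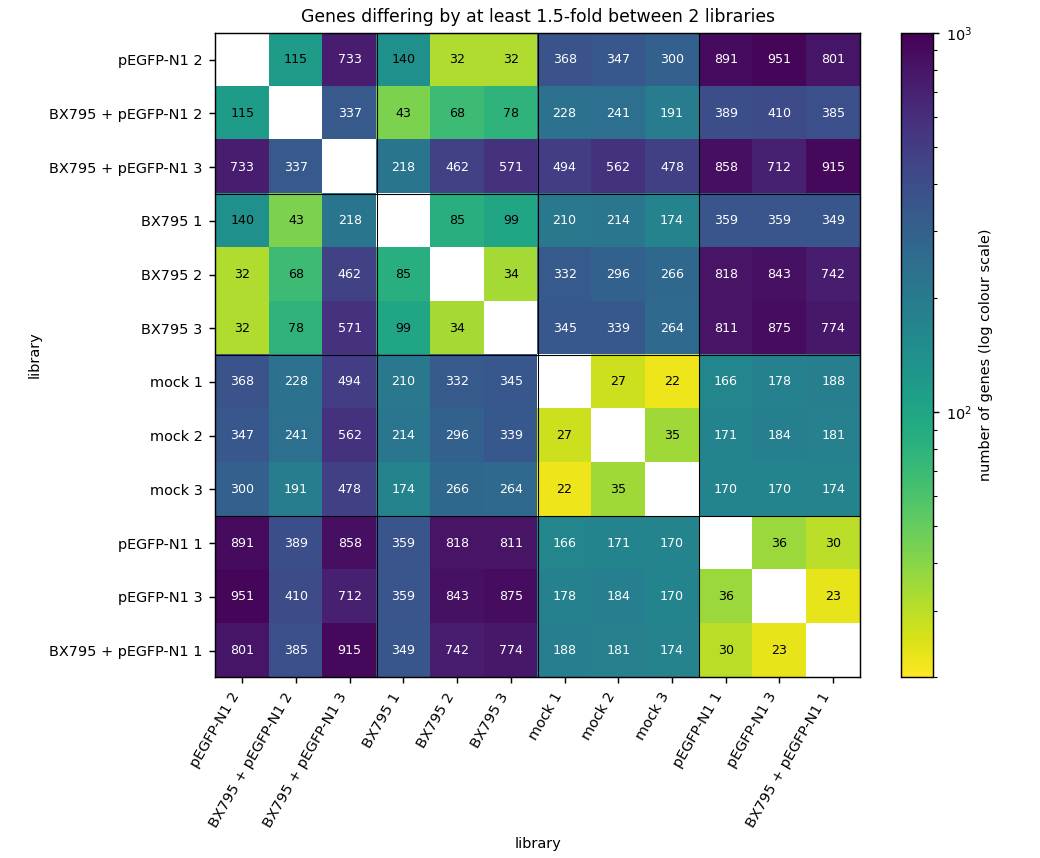
Number of genes that differ by at least 1.5-fold between each pair of the 12 libraries, on a log colour scale, with lines between the interferon-low transfected, BX795, mock and remaining transfected libraries. The library labelled pEGFP-N1 2 has 32 such genes to each of BX795 2 and BX795 3, and BX795 + pEGFP-N1 3 has at least 218 to every library.

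The 12 libraries were next placed by the genes that differed between BX795 and mock, in cells labelled as having had no plasmid. BX795 against mock, fitted with limma over those 6 libraries, called 2154 of 10241 genes at an adjusted p under 0.05 (21% of genes tested), 1324 higher (12.9%) and 830 lower (8.1%) with BX795. This count was 899, 993 and 1095 without mock replicates 1, 2 and 3, and 4406, 998 and 1134 without BX795 replicates 1, 2 and 3. It was 7 when all 12 libraries shared one estimate of the spread. Each library was then placed on a scale from 0, the mean of mock, to 1, the mean of BX795, by its median position over the called genes. The library labelled pEGFP-N1 replicate 2 lay at 1.06, next to BX795 replicates 2 and 3, which both lay at 1.09. BX795 plus pEGFP-N1 replicates 2 and 3 lay at 0.81 and 0.72, and BX795 replicate 1 at 0.82. BX795 plus pEGFP-N1 replicate 1, labelled as treated, lay at -0.12, with pEGFP-N1 replicates 1 and 3 at -0.17 and -0.18. The positions of the mock and BX795 libraries are part of how the scale was made, BX795 replicate 1 included, which resembled a library of another label. The scale describes expression, and whether inhibitor was present in a library was not tested. Leaving out the listed interferon-stimulated genes gave the same positions to within 0.01. Over the 857 genes at an unadjusted limma p under 0.001 the positions moved more. There, pEGFP-N1 replicate 2 lay at 1.03, and BX795 plus pEGFP-N1 replicates 2 and 3 at 0.92 and 0.81. BX795 plus pEGFP-N1 replicate 1 then lay at -0.05, and pEGFP-N1 replicates 1 and 3 at -0.09 and -0.10. All 3 interferon-low transfected libraries thus lay near BX795 on this scale, the one labelled as having had no inhibitor included.

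**Figure D2:**
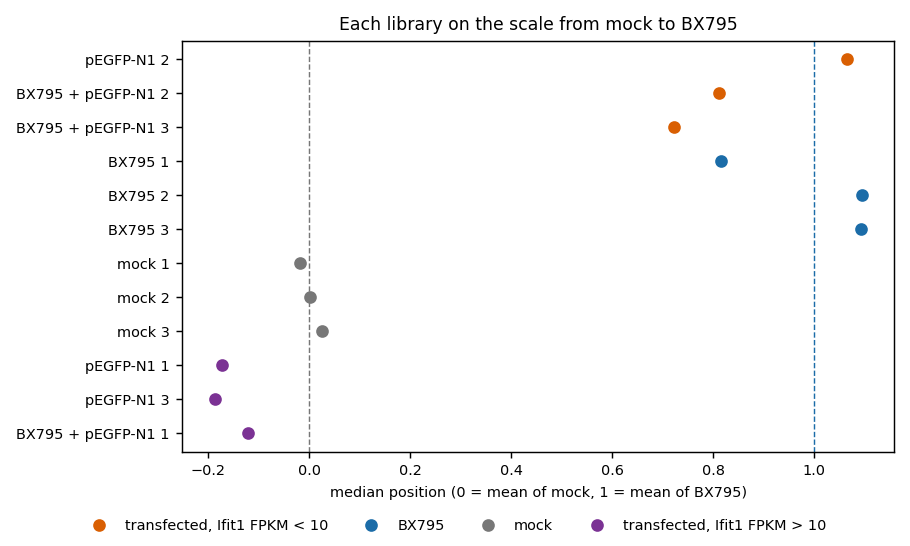
Median position of each library on the scale from the mean of mock (0) to the mean of BX795 (1), over 2142 genes called between those groups with interferon-stimulated genes left out. The 3 interferon-low transfected libraries sit between 0.72 and 1.06, and the other 3 transfected libraries between -0.19 and -0.12.

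The ERK feedback genes are one group that BX795 lowered. Etv5, an ETS transcription factor of the ERK pathway, read 4.93 FPKM in pEGFP-N1 replicate 2 and 5.97 and 6.97 FPKM in BX795 plus pEGFP-N1 replicates 2 and 3. It read 6.18, 4.83 and 5.4 FPKM in BX795 replicates 1 to 3, against 20.1 ± 0.668 FPKM in mock (SD, n = 3) and 19.8 to 21.4 FPKM in the other transfected libraries. The interferon-low and BX795 values overlapped, and both were far below mock. BX795 against mock was -1.71 ± 0.08 on the log2 scale (SE, limma adjusted p = 1.4e-05). Dusp6, the phosphatase that switches ERK off, read 5.87, 3.72 and 4.62 FPKM in the interferon-low libraries and 4.64, 5.81 and 5.78 FPKM with BX795, against 15.2 ± 0.987 FPKM in mock (SD, n = 3). Of the 20 measured ERK feedback genes, 15 fell and 2 rose with BX795 against mock, where 8.1% of all genes tested fell. Between the interferon-low libraries and BX795 their median difference was 0.03, against a median of 0.00 over all genes.

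The interferon-low transfected libraries were then compared with BX795 gene by gene. Of 10281 genes with at least 1 FPKM in at least 3 of the 6 libraries, 99.6% had mean log2(FPKM + 1) values within 0.5 of each other. A gene was counted as apart when all 3 values of one set lay above all 3 of the other and the means differed by at least 1. By this measure 1 gene was higher in the transfected libraries (0.00973% of genes) and 1 was lower (0.00973%). With no minimum size, 189 genes were apart on the higher side (1.84%) and 205 on the lower (1.99%). Because the libraries were grouped by a measured gene, these counts carry no test.

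Both genes owed their place to one library. Rpl37rt, annotated as a transcribed processed pseudogene of the ribosomal protein gene Rpl37 (chromosome 5, 115102923 to 115110268, minus strand, GRCm38), read 20.01 and 19.02 FPKM in pEGFP-N1 replicate 2 and BX795 plus pEGFP-N1 replicate 2, and 726 FPKM in BX795 plus pEGFP-N1 replicate 3. The BX795 libraries read 8.17, 12.03 and 16.03 FPKM, and the mean log2 difference of 2.41 became 0.69 without BX795 plus pEGFP-N1 replicate 3. In that same library the parent gene Rpl37 read 212 FPKM, against 576 to 725 FPKM in the other libraries. Reads of near-identical copies can be divided between them by the estimation step, so the value of either copy alone is uncertain. Gm5820 read 6.6, 7.02 and 0.08 FPKM in the transfected libraries and 7.37, 7.32 and 7.76 FPKM with BX795, and its difference of -1.07 became -0.12 without the library at 0.08. Among genes whose values did not overlap, the nearest inside the limit of 1 on the lower side were Armc7 and Tlcd5, both at -0.95 and both low in BX795 plus pEGFP-N1 replicate 3, at 5.57 FPKM against 31.6 to 36.5 in the other 5 libraries for Armc7. On the higher side the nearest among genes whose values did not overlap were Gm7102 and S100a5, at 0.40 and 0.39. Whether or not values overlapped, 10 genes differed by at least 1 between the means, and those other than the 2 above ranged from -2.00 for H2ac23 to 1.84 for Rps27rt.

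Without BX795 plus pEGFP-N1 replicate 3, no gene was apart by 1 in either direction. The total of 2 became 8 without pEGFP-N1 replicate 2, 11 without BX795 plus pEGFP-N1 replicate 2, 4 without BX795 replicate 1, 4 without BX795 replicate 3 and 3 without BX795 replicate 2. With fewer libraries on a side, values fail to overlap more readily, so these counts are not on the same footing as the first.

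**Figure D3:**
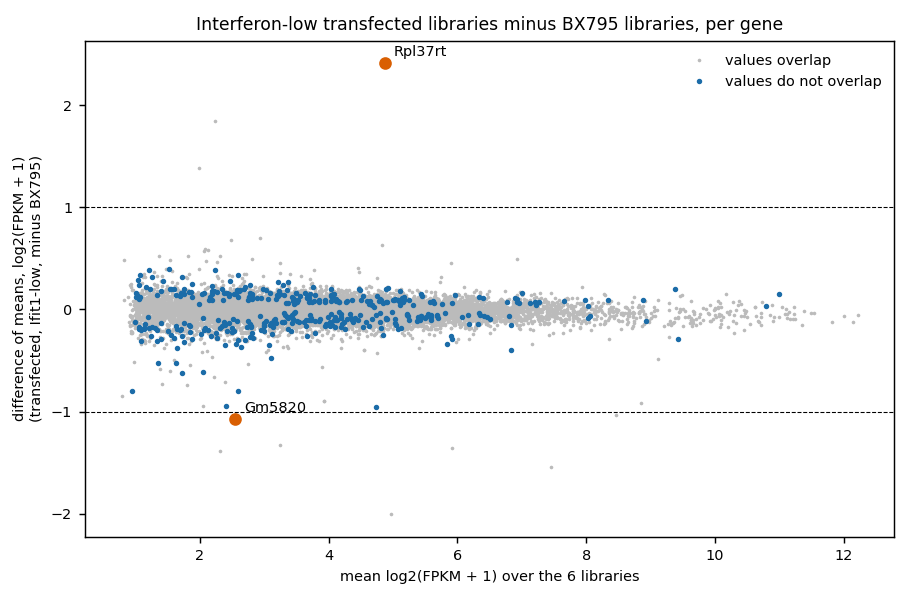
Difference of mean log2(FPKM + 1), interferon-low transfected minus BX795, against the mean over the 6 libraries, for 10281 genes, with dashed lines at a difference of 1 in each direction. The 394 genes whose values do not overlap are in blue and the 2 that also differ by at least 1, Rpl37rt and Gm5820, in orange.

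Chemokine levels divided the libraries within each set more than between the sets. The promoters of 3 of them, Cxcl1 and Cxcl2, neutrophil attractants, and Cxcl10, a T cell attractant and interferon-stimulated gene, are shown because they are chemokine genes whose promoters hold matches to the motifs below, and they were chosen after those matches were known. Each runs from 250 bases before to 50 bases after the RefSeq start on GRCm38.p6, at chr5:90890995-90891294 (plus strand), chr5:90903649-90903948 (plus strand) and chr5:92348840-92349139 (minus strand). Capitals mark matches on either strand to GGGA and TTCC with any 2 bases between them, an NF-κB motif, and to GAAA and GAAA with any 2 bases between them, an interferon-stimulated response element.
Cxcl1: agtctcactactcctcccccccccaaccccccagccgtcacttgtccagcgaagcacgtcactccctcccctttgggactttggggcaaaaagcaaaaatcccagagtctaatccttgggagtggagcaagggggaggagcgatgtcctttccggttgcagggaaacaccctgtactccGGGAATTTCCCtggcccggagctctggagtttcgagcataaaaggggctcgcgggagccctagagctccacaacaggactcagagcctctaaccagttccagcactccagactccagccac
Cxcl2: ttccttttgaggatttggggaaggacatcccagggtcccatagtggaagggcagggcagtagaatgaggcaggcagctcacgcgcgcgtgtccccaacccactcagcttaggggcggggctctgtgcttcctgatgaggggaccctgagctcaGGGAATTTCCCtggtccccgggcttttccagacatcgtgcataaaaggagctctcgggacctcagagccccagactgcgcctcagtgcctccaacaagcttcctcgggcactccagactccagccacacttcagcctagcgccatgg
Cxcl10: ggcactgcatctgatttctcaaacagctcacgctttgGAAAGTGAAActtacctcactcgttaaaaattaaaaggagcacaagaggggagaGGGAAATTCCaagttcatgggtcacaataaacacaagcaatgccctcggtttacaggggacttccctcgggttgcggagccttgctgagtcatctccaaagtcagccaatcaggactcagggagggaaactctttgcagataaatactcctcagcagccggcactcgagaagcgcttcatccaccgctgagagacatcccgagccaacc
Cxcl1 and Cxcl2 each hold 2 overlapping matches to the NF-κB motif, on opposite strands, first at 71 and 97 bases before the start. Cxcl10 holds 1 match to the NF-κB motif, 159 bases before the start, and 1 to the response element, 213 bases before it. The NF-κB motif was found in 1.47% and the response element in 3.44% of 32851 mouse promoters of the same length. Of the other genes of this kind described below whose promoters were searched, Nfkbia held 1 match to the NF-κB motif and 0 to the response element, and Tlr2, Lif and both starts of Tnfaip3 held 0 matches to either. A match describes the letters only.

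Cxcl1 read 164 FPKM in pEGFP-N1 replicate 2 and 375 and 297 FPKM in BX795 plus pEGFP-N1 replicates 2 and 3. In BX795 replicates 1, 2 and 3 it read 353, 191 and 171 FPKM, against 105 ± 2.49 FPKM in mock (SD, n = 3). The first library of the BX795 set was therefore among the high values, the transfected library labelled pEGFP-N1 replicate 2 was the lowest of all 6, and the sets overlapped. Cxcl2 was divided in a similar way, with 15.3, 32.2 and 28.2 FPKM against 29.6, 15.5 and 13.8 FPKM, so that its lowest value was in BX795 replicate 3, and it read 4.28 ± 0.269 FPKM in mock (SD, n = 3). Cxcl10 read 1.58, 5.68 and 6.47 FPKM against 7.86, 0.9 and 1.85 FPKM. These levels were far from the 123 to 136 FPKM in the 3 interferon-high transfected libraries. Mean differences between the sets were 0.22 for Cxcl1, 0.36 for Cxcl2 and 0.47 for Cxcl10 on the log2 scale. With both pEGFP-N1 replicate 2 and BX795 replicate 1 left out, they became 0.88, 0.995 and 1.60, a choice of libraries made after the values were seen.

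Ccl2 and Ccl7, monocyte attractants, were also divided within each set. Ccl2 read 696, 988 and 780 FPKM in the transfected libraries and 946, 717 and 668 FPKM with BX795, and Ccl7 read 254, 383 and 365 FPKM against 371, 272 and 261 FPKM. Tlr2, a receptor for bacterial lipoproteins, read 13.6, 24.1 and 20.02 FPKM against 22.0, 14 and 14.8 FPKM. Lif, a cytokine of the IL-6 family, read 7.68, 11.96 and 9.99 FPKM against 11.5, 8.24 and 8.13 FPKM. In each of these genes pEGFP-N1 replicate 2 was near BX795 replicates 2 and 3, and BX795 plus pEGFP-N1 replicate 2 was near BX795 replicate 1.

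NF-κB targets as a list were higher with BX795 than in mock. With BX795 against mock, 21 of 28 measured targets rose and 0 fell, where 12.9% of all genes tested rose, among them the feedback inhibitors Nfkbia (1.32 ± 0.08 on the log2 scale, SE, limma adjusted p = 5.32e-05) and Tnfaip3 (1.46 ± 0.14, limma adjusted p = 0.000251). Nfkbia read 182, 245 and 144 FPKM in the transfected libraries and 230, 185 and 180 FPKM with BX795, against 78.1 ± 2.85 FPKM in mock (SD, n = 3). Between the transfected and BX795 sets, 14 targets had a higher mean and 14 a lower one, none was apart by 1, and the median difference was 0.03. The list median relative to the BX795 mean was -0.15 in pEGFP-N1 replicate 2, 0.19 in BX795 plus pEGFP-N1 replicate 2 and 0.02 in replicate 3, and it was 0.16, -0.07 and -0.11 in BX795 replicates 1 to 3. In the mock libraries it lay between -0.74 and -0.58. The transfected set was chosen by a measured gene, so its list median was not tested against mock.

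**Figure D4:**
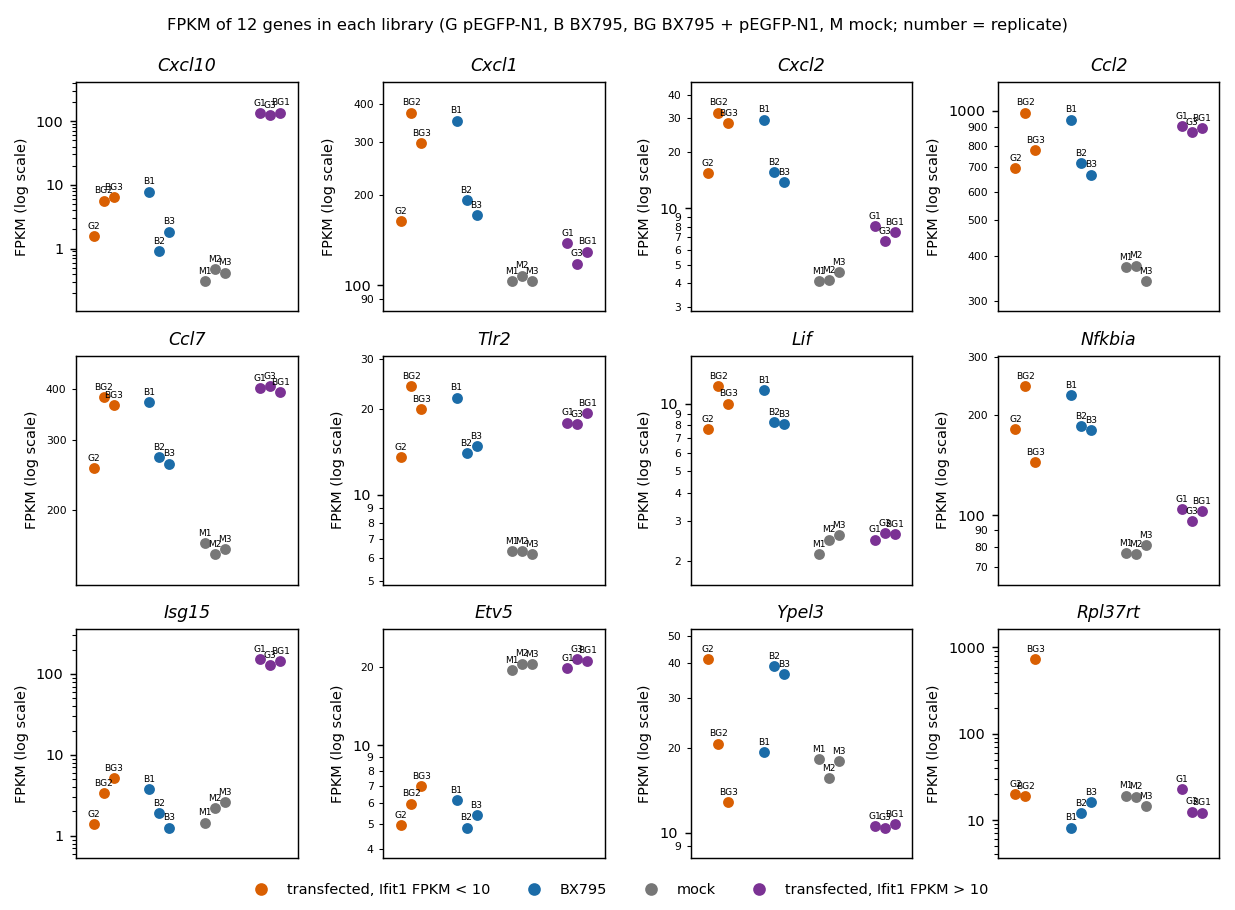
FPKM (log scale) of 12 genes in each of the 12 libraries, with the interferon-low transfected, BX795, mock and interferon-high transfected libraries from left to right in each panel. In Cxcl1, Cxcl2 and Tlr2 the point G2 lies with B2 and B3, and BG2 and BG3 lie with B1, while Rpl37rt is raised in BG3 alone, at 726 FPKM.

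Isg15 and other strongly induced interferon-stimulated genes were low in all 6 libraries, as was the gene used by the rule. Of 58 listed genes in the table, 31 passed the filter, 19 with a higher and 12 with a lower mean in the transfected set, and 1 (Oas1a, lower) was apart at any size, where 1.99% of all genes were apart on that side. The list shares its regulation with Ifit1, so its low level in the transfected libraries belongs to the choice of libraries. Isg15, a ubiquitin-like protein, read 1.38, 3.39 and 5.15 FPKM in the transfected libraries and 3.76, 1.9 and 1.26 FPKM with BX795, against 129 to 152 FPKM in the interferon-high libraries. Oasl1 read 1.01, 1.61 and 5.08 FPKM against 3.5, 0.8 and 0.74 FPKM. Both genes overlapped between the sets, again with BX795 replicate 1 on the higher side. Xaf1, a proapoptotic interferon-stimulated gene, was the widest of the list at 0.52, which rested on 6.59 FPKM in BX795 plus pEGFP-N1 replicate 3, since the other 5 libraries read 0.87 to 1.31 FPKM. With BX795 against mock, 11 of 30 measured genes of the list rose and 1 fell, where 12.9% of all genes tested rose and 8.1% fell. Tapbp, one that rose, the tapasin that loads peptides onto MHC class I, read 73.8, 69.6 and 64.4 FPKM against 67.4, 70.3 and 71.1 FPKM with BX795, and 40.6 FPKM on average in mock (BX795 against mock 0.76 ± 0.05 on the log2 scale, SE, limma adjusted p = 5.07e-05).

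The sensors of the DNA pathway differed little between the sets. Cgas read 1.74, 2.11 and 2.64 FPKM in the transfected libraries and 2.3, 1.82 and 1.85 FPKM with BX795, and Tbk1 read 18.8, 19.2 and 21.2 FPKM against 19.5, 19.3 and 18.7 FPKM. Of 16 measured genes of the list, 1 was apart on the higher side and 1 on the lower, at any size, where 1.84% and 1.99% of all genes were. Trex1, a nuclease that destroys cytosolic DNA, read 7.05, 6.09 and 6.22 FPKM against 5.35, 5.88 and 4.78 FPKM, a difference of 0.24. Ifi204, a DNA-binding protein of the interferon-inducible p200 family, read 30.6, 31.7 and 28.5 FPKM against 33.2, 34.4 and 33.6 FPKM, a difference of -0.15.

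Other gene groups that changed with BX795 were near the BX795 level in the transfected libraries. The counts that follow stand beside 12.9% of all genes tested that rose and 8.1% that fell with BX795. In cholesterol synthesis 17 of 21 measured genes rose with BX795 against mock and 0 fell, and Fdft1, squalene synthase, read 23.9, 23.1 and 20.7 FPKM in the transfected set against 20.3, 23.4 and 23.4 FPKM with BX795 and 13.2 FPKM on average in mock. Dhcr7, the last enzyme of one branch of the pathway, was the member that was apart, at 15.6, 16.4 and 18.2 FPKM against 14.2, 14.8 and 14.1 FPKM. Of 43 genes of G2/M and mitosis, 34 rose and 0 fell with BX795, and Cdc20, an activator of the anaphase-promoting complex, read 159, 154 and 126 FPKM against 156, 155 and 157 FPKM, with 104 FPKM on average in mock. Of 35 genes of G1/S and DNA replication, 20 fell and 2 rose. Ung, a uracil DNA glycosylase, read 9.5, 8.93 and 8.78 FPKM against 8.96, 9.04 and 8.5 FPKM, with 17.0 FPKM on average in mock. In the unfolded protein response 13 of 18 genes fell and 0 rose, and Hspa5, the chaperone BiP, read 995, 1158 and 1070 FPKM against 1143, 1111 and 1082 FPKM, with 1486 FPKM on average in mock. Between the transfected and BX795 sets, the median difference of these lists was 0.03, 0.00, 0.03 and -0.01 in that order, and no member was apart by 1. At any size, where 1.84% of all genes were apart on the higher side and 1.99% on the lower, 3 of the 35 G1/S genes were apart on the higher side, Cdt1, Gins2 and Chaf1b, at differences of 0.09, 0.08 and 0.19. Of the 18 genes of the unfolded protein response, 2 were apart on the lower side, Pdia4 and Canx, at -0.07 and -0.08. None of the G2/M genes was apart.

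**Figure D5:**
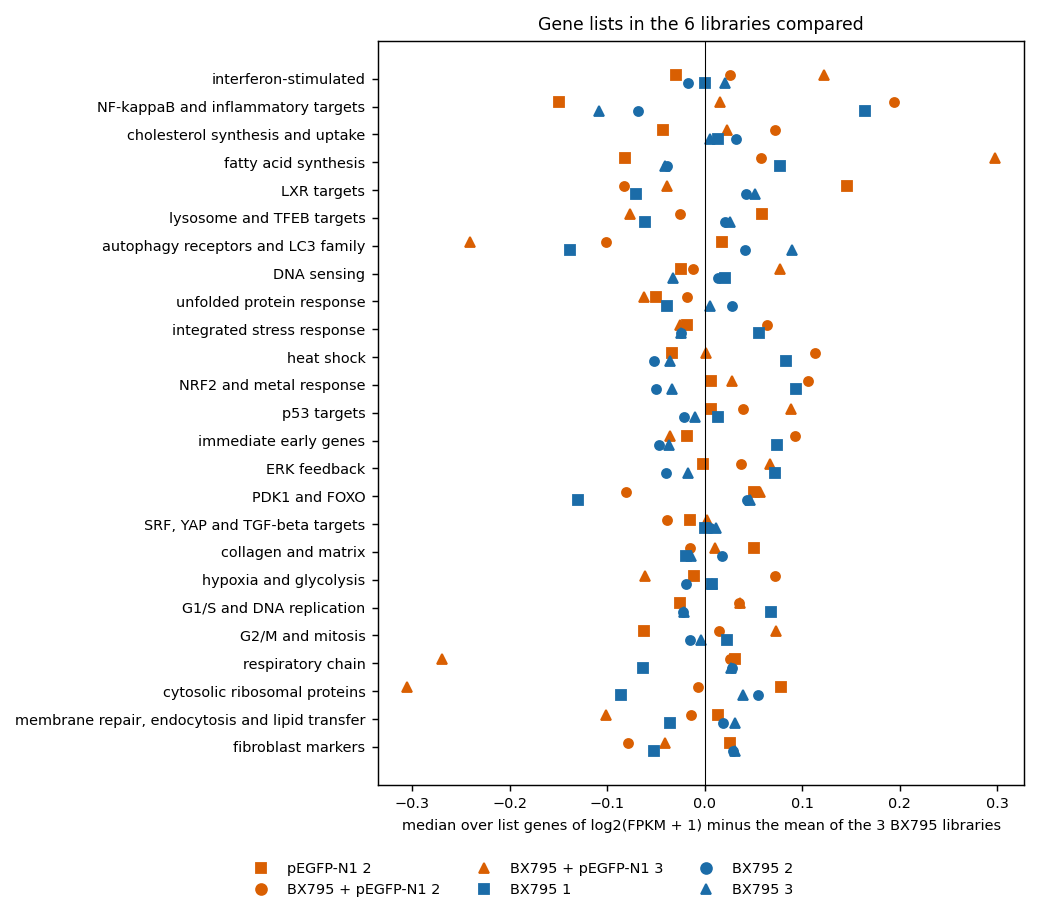
Median over each gene list of log2(FPKM + 1) relative to the mean of the 3 BX795 libraries, for the 3 interferon-low transfected libraries (orange) and the 3 BX795 libraries (blue), for lists with at least 5 measured genes. The widest medians are in BX795 + pEGFP-N1 3, at -0.31 for cytosolic ribosomal proteins and 0.30 for fatty acid synthesis.

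Of 29 lists, 27 had a measured gene. None of these had a member apart by 1, and their medians lay between -0.10 and 0.09. The lowest median was that of autophagy receptors and the LC3 family, with 14 of 15 genes lower in the transfected set. Relative to the BX795 mean it was 0.02 in pEGFP-N1 replicate 2, -0.10 in BX795 plus pEGFP-N1 replicate 2 and -0.24 in replicate 3, and it was -0.14, 0.04 and 0.09 in BX795 replicates 1 to 3. Map1lc3b, the main LC3 protein of autophagosome membranes, read 41.2, 32.2 and 24.8 FPKM against 32.8, 41.6 and 41.6 FPKM, so that BX795 replicate 1 again lay with BX795 plus pEGFP-N1 replicate 2. Calcoco1 showed the division more widely, at 18.1, 9.01 and 8.57 FPKM against 7.9, 18.8 and 17.2 FPKM. Ribosomal proteins (53 of 60 lower) and respiratory chain genes (37 of 46 lower) had medians of -0.07 and -0.06. In BX795 plus pEGFP-N1 replicate 3 alone, the medians of these lists were -0.31 and -0.27 relative to the BX795 mean, and in pEGFP-N1 replicate 2 and BX795 plus pEGFP-N1 replicate 2 they lay between -0.01 and 0.08. The part of that library's own state in these counts was not tested. The highest median, 0.09, was that of fatty acid synthesis, with 10 of 11 genes higher. It was 0.30 in BX795 plus pEGFP-N1 replicate 3 against -0.08 in pEGFP-N1 replicate 2. That rank depended on the filter. Among genes with a mean of at least 5 FPKM, p53 targets had the higher median, 0.099 against 0.088 for fatty acid synthesis.

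Markers of the cell line and of other cell types did not separate the sets. Fibroblast genes such as Vim (1576 to 2073 FPKM in the 6 libraries) and Col1a1 (59.2 to 78.4 FPKM) were expressed, while Dcn, Thy1 and Fap were at or near 0, and 10 of 15 listed markers passed the filter. No epithelial or endothelial marker passed. Of the macrophage and leukocyte markers, Cd68 passed (111 to 126 FPKM), and Ptprc, Itgam, Csf1r and Adgre1 were at or near 0. Of the adipocyte markers 3 passed, Cd36, Fabp4 and Pparg.

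The comparisons by label gave the tests that the chosen grouping could not. BX795 plus pEGFP-N1 against BX795, over all 3 libraries of each label, called 0 of 10412 genes at a limma adjusted p under 0.05 (0% of genes tested). Without adjustment, 579 genes (5.56%) had a p under 0.05, 204 higher and 375 lower. For Cxcl1 the difference was 0.11 ± 0.34 on the log2 scale (SE, limma adjusted p = 0.905) and for Ccl2 0.20 ± 0.14 (limma adjusted p = 0.611), so the test does not show that the groups were alike. The spread, shared by all 12 libraries, includes BX795 plus pEGFP-N1 replicate 1, which was interferon-high, and pEGFP-N1 replicate 2, which was interferon-low. Without BX795 plus pEGFP-N1 replicate 1 and BX795 replicate 1 the count was again 0, with 1001 genes at an unadjusted p under 0.05. In that fit pEGFP-N1 replicate 2 was still part of the shared spread. The contrast was not fitted with all 3 of these libraries left out, so the repeated 0 does not show that the groups were alike.

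pEGFP-N1 against mock called 7 genes (0.0672% of genes tested), all higher with the plasmid in this fit: Tapbp, Ccl2, Tlr2, Irf1, Dhrs3, Slpi and Ccl7. This contrast shares its mock libraries with BX795 against mock, so their values are given side by side. Dhrs3, a retinal reductase, read 2.55 FPKM in pEGFP-N1 replicate 2, 1.99 and 2.02 FPKM in replicates 3 and 1, 1.89 to 2 FPKM with BX795 and 0.75 to 1.12 FPKM in mock. Tlr2 read 13.6 FPKM in pEGFP-N1 replicate 2, 17.8 and 17.9 FPKM in replicates 3 and 1, 16.9 ± 4.38 FPKM with BX795 and 6.31 ± 0.104 FPKM in mock (SD, n = 3). The count was 0 without pEGFP-N1 replicate 1, pEGFP-N1 replicate 3, mock replicate 1 or mock replicate 3, 1 without mock replicate 2, and 17 without pEGFP-N1 replicate 2, of which 15 were higher and 2 lower. It was 868, of which 406 were higher and 462 lower, without pEGFP-N1 replicate 2, BX795 plus pEGFP-N1 replicate 1 and BX795 replicate 1, libraries left out after their profiles were seen. The difference between the plasmid's effects without and with BX795 passed an adjusted p under 0.05 in 0 genes (limma). Without adjustment, 407 genes had a limma p under 0.05. That fit used all 12 libraries by label, and each plasmid group in it mixed interferon-high and interferon-low libraries. Ifit1 read 96.7, 0 and 95.2 FPKM in pEGFP-N1 replicates 1 to 3. In BX795 plus pEGFP-N1 replicates 1 to 3 it read 92.6, 0.17 and 0.57 FPKM. The 0 therefore does not show that BX795 left the plasmid's effect unchanged. This difference was not fitted without the libraries that resembled another group.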

How the data were processed

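Gene expression was measured by RNA-seq on a BGISEQ-500 in 12 libraries of L929 cells, 3 per group. Per the labels, reads were aligned to GRCm38.p5 with Bowtie2 2.2.5 and quantified with RSEM. The values are FPKM as deposited by the authors, rounded to 2 decimals, for 17571 genes; the groups came from the labels. FPKM keeps no depth, so precision rests on replicates.

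FPKM were transformed to log2(FPKM + 1), a scale that understates changes of low genes. Genes with at least 1 FPKM in at least 3 of the libraries compared were kept. The interferon-low set was chosen by Ifit1 and is described without tests. Contrasts by label used limma 3.58.1 in R 4.3.3 with an intensity trend, over 12 libraries (BX795 against mock over 6), two-sided, with Benjamini-Hochberg adjustment. The script was tested on simulated data. Named genes were list members, genes apart by 1 and the 2 nearest each side of that limit, with the genes called between pEGFP-N1 and mock, Ypel3, Mxd4 and the genes high or low in BX795 plus pEGFP-N1 replicate 3 added after their values were seen. The members, the lists and the rule were chosen with earlier results of these data known. Identifiers were matched to RefSeq symbols for 17450 genes and not for 121. Promoter sequences are from RefSeq (GRCm38.p6), and the set of promoters used held none for Ccl2 and Ccl7. Gene coordinates are from GENCODE. Tables and figures were made with Python 3.11.15, pandas 2.3.3 and matplotlib 3.10.9. Alternatives changed the pseudocount, the filter, the scaling, the threshold and the libraries used.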

Additional observations from a re-analysis of the deposited data

How the results depend on the processing

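The number of genes apart by at least 1 between the interferon-low transfected and BX795 libraries was 2. It was 7 with a pseudocount of 0.1, 4 after rescaling to TPM, 1 after quantile normalization and 8 at a 1.5-fold limit, and it ranged from 0 to 11 when single libraries were left out. Chosen after the data were seen, it was 17 without pEGFP-N1 replicate 2 and BX795 replicate 1. Of these, 5 were higher in the transfected libraries: Rpl37rt, Gm2026 and the interferon-stimulated genes Cxcl10, Oasl1 and Isg15. The other 12 were lower, Ypel3 and Mxd4 among them. With BX795 plus pEGFP-N1 replicate 3 also left out, 1 transfected library stands against 2 with no spread on that side, so no count is given. Rpl37rt was among the higher genes under every alternative except those without BX795 plus pEGFP-N1 replicate 3. The cause of the other shifts was not tested.

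For BX795 plus pEGFP-N1 against BX795, 0 genes passed an adjusted p under 0.05, and 1 did with no filter on low values and 579 at an unadjusted p. For pEGFP-N1 against mock, 7 passed. This was 2 with no filter, 4 when only those groups were fitted, 488 at an unadjusted p, 868 without the 3 libraries that resembled another group, and 0 to 17 without single libraries. For BX795 against mock, 2154 passed, which was 7 with all 12 libraries, 857 at an unadjusted p under 0.001 and 899 to 4406 without single libraries. The replicate number as a block gave 0, 5 and 2298 genes for these contrasts. Same-numbered libraries did not deviate together throughout (correlations across genes from -0.39 to 0.63), so the numbers were not taken as pairs. Of the alternative values of list medians, 373 moved by less than the spread between libraries and 27 by more, and of those of named genes 244 and 25. Medians this close to 0 changed sign in some lists. FPKM without read totals sets no limit on low genes beyond the spread of replicates.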

Other observations

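Further genes, named after their values were seen, also divided the 6 libraries within each set. Ypel3 read 41.2 FPKM in the library labelled pEGFP-N1 replicate 2 and 20.7 and 12.8 FPKM in BX795 plus pEGFP-N1 replicates 2 and 3, against 19.4, 39.1 and 36.5 FPKM in BX795 replicates 1 to 3. Mxd4, a MAX partner that opposes MYC, read 12.8, 6.21 and 6.37 FPKM against 6.26, 14.5 and 12.9 FPKM. Hmox1, heme oxygenase, read 17.5, 26.1 and 31.4 FPKM against 25.9, 15.1 and 15.2 FPKM, and Slc7a11, the cystine transporter, read 0.72, 1.98 and 2.69 FPKM against 2.26, 0.9 and 0.82 FPKM. All 4 genes overlapped between the sets.

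The 16 genes at least 2-fold above and 19 at least 2-fold below all other libraries in BX795 plus pEGFP-N1 replicate 3 included genes that have near-identical copies and other genes, and no theme was tested. Gapdh-ps15 read 8.99 FPKM there and 265 to 340 FPKM elsewhere, Rpl31-ps12 read 55.9 FPKM against 420 to 524 FPKM, and H2ac23, a histone gene, was listed at 0 against 47.4 to 99.8 FPKM. Rps27rt read 45.0 FPKM, and elsewhere 14.3 FPKM in 2 libraries and 0 in 9. Among the other genes, Cep295, a centrosomal protein gene, read 21.1 FPKM against 6.06 to 7.31 FPKM, and Slc7a14 read 0.41 FPKM against 4.54 to 5.65 FPKM. How reads were divided among copies was not examined.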
